A study of Mus musculus with 6 samples.

Results

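Head mesoderm and pharyngeal factors are here 8 transcription factor genes, Tbx1, Tbx2, Tbx3, Tbx15, Tbx18, Pitx1, Tcf21 and Msc, measured in the heads of E8.5 mouse embryos with and without the histone demethylase Jarid1b. They were chosen by name, each through the array row whose platform annotation gives that symbol alone, and 8 of 8 had exactly 1 such probe set, among 19938 genes and 21789 probe sets of this kind. The 3 knockout pools held embryos lacking Jarid1b, and the 3 heterozygote pools held embryos with a single intact Jarid1b allele, all on C57BL/6, untreated, with 4 heads pooled per sample and RNA hybridized to Affymetrix mouse Gene 1.0 ST arrays. The mutant allele came from a floxed Jarid1b allele deleted with Cmv-cre, which acts in the whole animal, and heterozygotes were intercrossed to give knockouts. No wild-type pool was used, and the sex of the pooled embryos was not given. Jarid1b removes methyl groups from H3K4, a mark of active promoters, and the comparison asks whether its loss is accompanied by a difference in transcript levels in the early head.

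The mesoderm beneath the early brain and the pharynx gives rise to jaw and face muscles and to part of the heart. T-box proteins, which bind DNA through a shared T-box domain, specify several of these tissues. Tbx1 acts in pharyngeal mesoderm and endoderm and is a main gene of DiGeorge syndrome in humans, while Tbx2 and Tbx3 are closely related repressors with roles in the eye, heart and limbs. Tbx15 and Tbx18 form a second related pair that acts in mesenchyme of the skeleton, skin, somites and epicardium. Pitx1 is a homeodomain factor of the oral ectoderm, the first arch, the pituitary and the hindlimb, and Tcf21 (capsulin) and Msc (MyoR) are related basic helix-loop-helix factors that act together in the precursors of the chewing muscles.

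Because Jarid1b acts at promoters, the promoters of the genes that vary most in the results below are shown first, as the 250 bases before the RefSeq start in the assembly GRCm38.p6. The set of promoter sequences at hand held an entry for 3 of the 8 genes. They are given for Tcf21, the gene with the largest difference between genotypes, and Tbx18, the gene with the largest range over the pools. CpG dinucleotides, which are typical of promoters that carry H3K4me3, are in capitals.
Tcf21, chr10:22820144-22820393, minus strand: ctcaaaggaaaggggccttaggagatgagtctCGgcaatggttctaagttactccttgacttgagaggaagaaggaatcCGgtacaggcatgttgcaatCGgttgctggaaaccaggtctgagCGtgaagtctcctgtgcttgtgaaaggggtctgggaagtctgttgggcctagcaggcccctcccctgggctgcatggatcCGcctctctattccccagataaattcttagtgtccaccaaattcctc
Tbx18, chr9:87731261-87731510, minus strand: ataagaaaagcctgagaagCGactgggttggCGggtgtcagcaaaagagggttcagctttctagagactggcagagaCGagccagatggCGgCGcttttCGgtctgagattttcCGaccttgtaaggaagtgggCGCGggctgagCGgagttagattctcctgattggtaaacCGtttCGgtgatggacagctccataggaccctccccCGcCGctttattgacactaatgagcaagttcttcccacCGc
The Tcf21 sequence held 5 CpG dinucleotides and 52.4% GC, close to the medians of 6 and 52.4% over 32851 promoters of the same length. The Tbx18 sequence held 15, a number reached by 27.3% of promoters. At the Tbx1 locus, 2 starts were listed, with 17 and 10 CpG dinucleotides. The T-box binding site TCACACC, searched on both strands, was in none of these 4 sequences and in 3.33% of all promoters. The basic helix-loop-helix site CANNTG, which reads the same on both strands, was found 1 time before Tbx18 and 1 time in a Tbx1 promoter, and 66.2% of all promoters hold it. Neither match overlapped another searched site. These matches are descriptions of the letters and not of binding.

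The labels were first checked with the targeted gene. Jarid1b, listed as Kdm5b, had log2 intensities of 7.63, 7.47 and 7.71 in knockout pools, against 9.17, 9.12 and 9.16 in heterozygote pools. It was the only one of 21789 probe sets to pass an adjusted p of 0.05 (limma, adjusted p = 6.29e-04), or 0.00459%. None of the 12 measured markers of neural ectoderm and none of the 10 of head mesenchyme lay among the dimmest 7263 probe sets (mean log2 intensity up to 5.33), while 4 of 10 markers of somites and caudal mesoderm did. The listed markers of neural crest, heart muscle, visceral endoderm and surface ectoderm had none there either, so brightness alone does not set head tissue apart. Heart muscle markers were present in every pool, with summed linear intensities from 17245 to 17935 in knockouts and from 17270 to 18548 in heterozygotes. A pair of knockout pools stood apart in the summed marker intensity of other cell types. The summed intensity of 10 visceral endoderm markers was 3807 in knockout replicate 3, against 7323 to 8656 in the other 5 pools, and that of 8 primitive blood markers was 1937 in knockout replicate 2, against 348 to 613 in the others. Such sums are weighted to the brighter genes. The median log2 deviation of the blood markers from each gene's mean was 0.21 in knockout replicate 2 and 0.19 in knockout replicate 3. In the other pools it was -0.22 to -0.06.

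After adjustment over all 21789 probe sets, none of the 8 genes passed a p of 0.05 between knockouts and heterozygotes, with limma adjusted p-values from 0.398 for Tcf21 to 0.816 for Tbx1. The values of Tcf21, lower in knockouts, and of Tbx2, higher in knockouts, did not overlap between genotypes, while those of the other 6 genes did. On the log2 scale, 5 genes had a higher and 3 a lower mean in knockouts, and the median difference of the 8 was 0.05, with a median of -0.00 over all probe sets. The 95% confidence intervals of the 8 differences lay between -0.41 and 0.43, so that differences beyond 1.34-fold in either direction were outside all of them. In a pooled tissue, fewer cells of a type and less RNA per cell cannot be told apart.
At an unadjusted p under 0.05, 1 of the 8 genes differed, against 10.6% of all probe sets. The 1 gene, Tcf21, was lower, as were 4.66% of all probe sets, and 0 were higher, against 5.97%. Groups that do not overlap were seen in 2 of the 8 genes, where 17.1% of all probe sets had them, 8.03% higher and 9.03% lower in knockouts. With so few genes, neither count is read as a property of the 8. Brightness went with direction over the whole array. The median log2 fold change was 0.06 in the dimmest 7263 probe sets, -0.00 in the middle and -0.04 in the brightest, and Tbx15, Tbx18 and Msc are among the dimmest, Tbx2, Pitx1 and Tcf21 in the middle and Tbx1 and Tbx3 among the brightest. Among the dimmest, 10.5% were higher and 1.57% were lower at that p, and 12.0% were higher and 2.05% lower without overlap, against 0 of the 3 members by either measure. In the middle, 6.72% were higher and 5.71% lower at that p, against Tcf21 alone of 3 members, and 8.99% were higher and 8.22% lower without overlap, against Tbx2 and Tcf21. Among the brightest, 0.716% were higher and 6.71% lower at that p, and 3.06% were higher and 16.8% lower without overlap, against 0 of 2 members. Tcf21, at a mean of 7.67, lay near the top of the middle, whose highest mean was 7.69. It thus borders the brightest, where lower values in knockouts were the more common direction. With 3 pools against 3, an exact permutation test cannot give a p below 0.1.

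**Figure D1:**
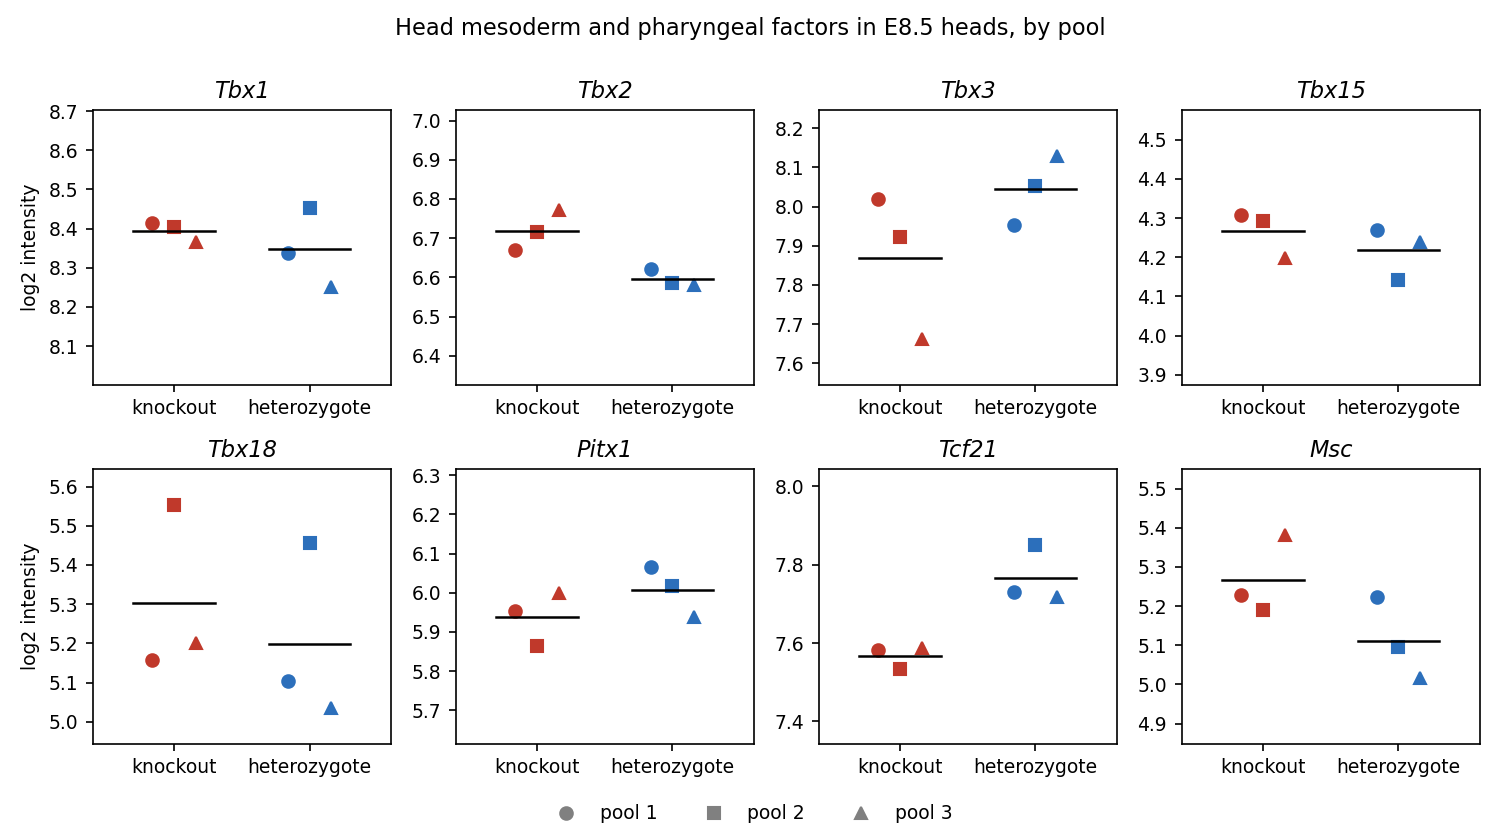
Log2 intensity of each of the 8 genes in each pool of E8.5 heads, with 3 knockout pools in red left of 3 heterozygote pools in blue, symbols for the pool number and a black line at each group mean; every panel spans the same 0.7 log2 units. Tcf21 lies between 7.53 and 7.59 in knockouts and between 7.72 and 7.85 in heterozygotes, while Tbx18 is high in the second pool of either genotype.

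Of the members Tcf21 and Msc, both basic helix-loop-helix factors, Tcf21 showed the clearer separation. Its log2 intensity was 7.58, 7.53 and 7.59 in knockout pools, against 7.73, 7.85 and 7.72 in heterozygote pools. All 3 knockout pools lay below all heterozygote pools, with a gap of 0.13 between the groups, against a range of 0.05 within knockouts and 0.13 within heterozygotes. The means were 7.57 ± 0.03 in knockouts and 7.77 ± 0.07 in heterozygotes (SD, n = 3 pools each). The log2 fold change was -0.20 with a standard error of 0.06 and an interval from -0.33 to -0.06, which is 1.15-fold lower (limma, unadjusted p = 0.010, adjusted p = 0.398, exact two-sided permutation p = 0.1). In each of 17 other settings, including the omission of any pool, its log2 fold change stayed between -0.25 and -0.16 and its unadjusted p between 0.00466 and 0.0406, while its adjusted p was between 0.310 and 0.617.
Msc, a repressor of muscle differentiation and the partner of Tcf21 in jaw muscle, ran the other way in its means and did not separate. It had log2 intensities of 5.23, 5.19 and 5.38 in knockouts, against 5.22, 5.10 and 5.02 in heterozygotes. The highest heterozygote pool lay above the lowest knockout pool. Its means differed by 0.16 on the log2 scale with an interval from -0.02 to 0.34 (limma, adjusted p = 0.516), and its lowest value on omission of a pool was 0.10. Msc belongs to the dimmest probe sets, where higher values in knockouts were the more common direction, and the part of this in the Msc value was not tested.

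The paralogs Tbx2 and Tbx3 had differences of opposite sign. Tbx2 had log2 intensities of 6.67, 6.72 and 6.77 in knockout pools, against 6.62, 6.59 and 6.58 in heterozygote pools. The groups did not overlap, but the lowest knockout and the highest heterozygote pool were only 0.05 apart. On the log2 scale the Tbx2 means differed by 0.12 with a standard error of 0.05 and an interval from -0.00 to 0.25 (limma, unadjusted p = 0.051, adjusted p = 0.470). Its unadjusted p was under 0.05 in 6 of 17 other settings and reached 0.139 without knockout replicate 3.
Tbx3, in contrast, had a lower mean in knockouts, with overlapping groups. It had log2 intensities of 8.02, 7.92 and 7.66 in knockouts, against 7.95, 8.05 and 8.13 in heterozygotes. Knockout replicate 3 was the lowest of all pools, and the other knockout pools lay within or just below the heterozygote range. Its difference was -0.18 on the log2 scale with a standard error of 0.10 and an interval from -0.41 to 0.05 (limma, adjusted p = 0.554). Without knockout replicate 3 it was -0.07 (unadjusted p = 0.356), and without knockout replicate 1 it was -0.25 (unadjusted p = 0.037). Knockout replicate 3 was also the pool in which visceral endoderm markers were low, and the part of this in the Tbx3 value was not tested. In the same pool Tbx2 and Msc had their highest values.

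Tbx1 was nearly level between genotypes. It had log2 intensities of 8.42, 8.41 and 8.36 in knockouts, against 8.34, 8.45 and 8.25 in heterozygotes. All knockout values lay inside the heterozygote range. Its difference was 0.05 on the log2 scale with an interval from -0.10 to 0.20, which leaves out differences beyond 1.15-fold upward and 1.07-fold downward (limma, adjusted p = 0.816). It was -0.00 without heterozygote replicate 3 and -0.03 with the mean of 3 Y-linked genes as a covariate. Pitx1 had log2 intensities of 5.95, 5.86 and 6.00 in knockouts, against 6.07, 6.02 and 5.94 in heterozygotes, which overlapped. Its log2 fold change was -0.07 with an interval from -0.21 to 0.08 (limma, adjusted p = 0.721). The summed intensity of 10 surface ectoderm markers, the tissue in which Pitx1 is known from the mouth, was 6836 to 7549 in knockouts and 7997 to 8158 in heterozygotes, without overlap, and its part in the Pitx1 value was not tested.

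**Figure D2:**
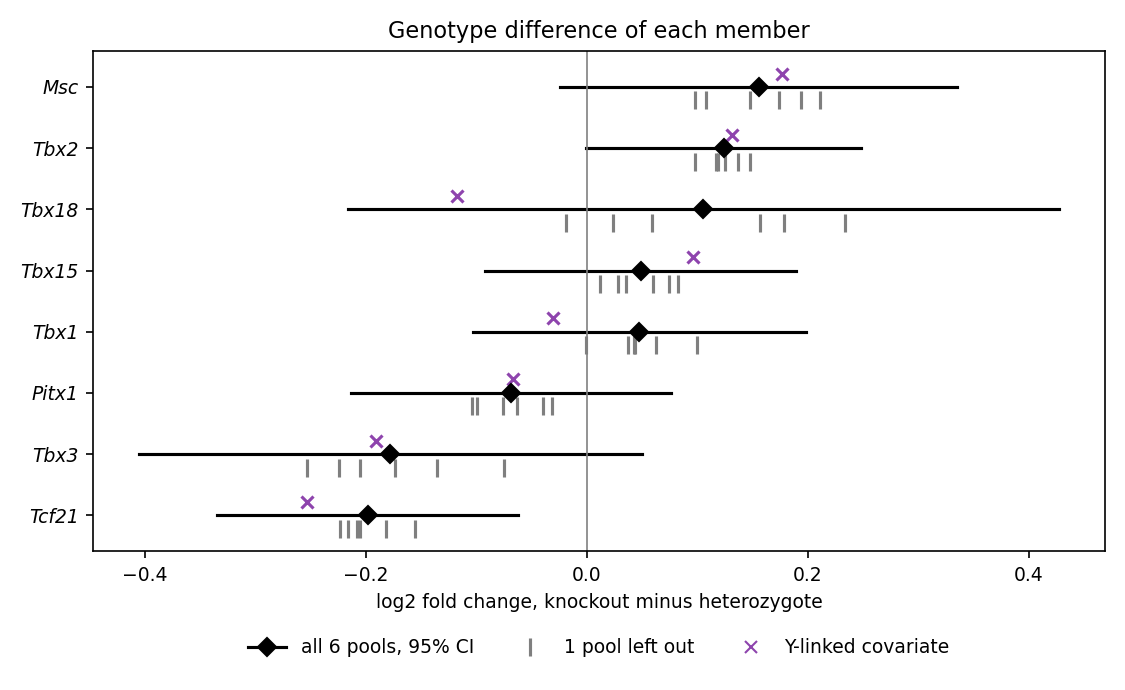
Difference in log2 intensity (knockout minus heterozygote) of each of the 8 genes with its 95% confidence interval (black), the values with 1 pool left out (gray ticks) and the value with the mean of 3 Y-linked genes as a covariate (purple crosses). The interval of Tcf21, from -0.33 to -0.06, is the only one that does not cross 0, and the covariate turns Tbx18 and Tbx1 negative.

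Tbx15 and Tbx18, the second pair of paralogs, differed in how much they varied. Tbx15, known for the shaping of skeleton and coat pattern, was dim and flat, with log2 intensities of 4.31, 4.29 and 4.20 in knockouts, against 4.27, 4.14 and 4.24 in heterozygotes. Its range over all 6 pools was 0.16, and 79.5% of genes had a range at least as large. Tbx15 differed by 0.05 on the log2 scale with an interval from -0.09 to 0.19 (limma, adjusted p = 0.798), and it was -0.01 after quantile or cyclic loess normalization. No detection call was used here, so whether Tbx15 lay above the background of the array is not known.
Tbx18, which acts in somites and in the forming epicardium, had the largest range of the 8 genes, 0.52, a range reached by 7.65% of genes. Its log2 intensity was 5.16, 5.55 and 5.20 in knockouts, against 5.10, 5.45 and 5.04 in heterozygotes. Replicate 2 of either genotype was high, by at least 0.25 over every other pool, and the other 4 pools lay within 0.17 of each other. Between genotypes, its log2 fold change was 0.11 with a standard error of 0.14 and an interval from -0.22 to 0.43 (limma, adjusted p = 0.810), and its SD was 0.22 in either genotype. It was -0.02 without knockout replicate 2 and 0.23 without heterozygote replicate 2.
The same pools also stood apart in sex-linked transcripts. Xist, the RNA that coats the silenced X chromosome of females, was at 8.82, 3.74 and 8.91 in knockouts, against 10.17, 4.22 and 10.08 in heterozygotes. The mean log2 intensity of 3 Y-linked genes (Eif2s3y, Kdm5d and Uty) was 7.55, 7.94 and 7.52 in knockouts, against 6.24, 7.97 and 6.16 in heterozygotes. The pools with high Tbx18 were thus those with the lowest Xist and the highest Y-linked level, and in the heterozygotes the pools with the lowest Y-linked level had the lowest Tbx18. With the Y-linked mean as a covariate, the log2 fold change of Tbx18 was -0.12 (limma, adjusted p = 0.794). The 3 Y-linked genes were themselves higher in the knockout means, with a median log2 fold change of 0.90. A fit with this covariate therefore does not fully separate embryo sex from genotype. Beyond this covariate, the part of embryo sex in the Tbx18 values was not tested.

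**Figure D3:**
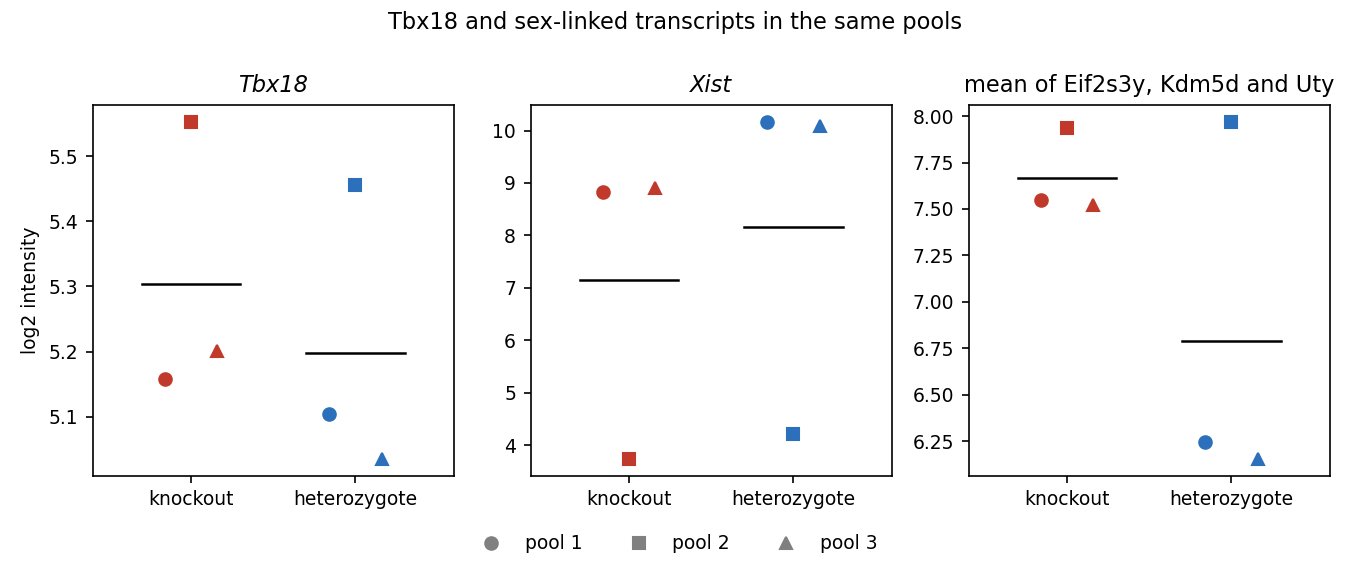
Log2 intensity per pool of Tbx18, of Xist and of the mean of 3 Y-linked genes, with knockout pools in red left of heterozygote pools in blue, symbols for the pool number and a black line at each group mean. Replicate 2 of either genotype has the highest Tbx18 (5.55 and 5.45) and the lowest Xist (3.74 and 4.22).

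The genes whose pattern over the pools was most like that of a member were sought for the 3 members with the largest range. Among genes at or above the median intensity with at least 0.5 of the range of the member, which numbered 3029 for Tbx18, 3823 for Tbx3 and 5715 for Msc, the highest Pearson correlations over the 6 pools are a description without a test. For Tbx18 they were Fkbp5 (r = 0.98), a chaperone of steroid receptors, Prkar2a (r = 0.97), a subunit of protein kinase A, and Ccdc160 (r = 0.94), each with a Spearman rho of 0.94. Without both replicates 2, the Pearson r of these genes with Tbx18 was 0.81, 0.69 and 0.94. For Tbx3 they were Dele1, the lipoprotein receptor Scarb1 and the receptor Notch2, with r of 0.99 each and rho of 1, 0.94 and 1, and with r of 0.98, 0.92 and 0.91 without the third pool of either genotype. For Msc they were Cnot7, a deadenylase subunit, Rbbp5, a subunit of H3K4 methyltransferases, and Tut4, an RNA uridylyltransferase, with r of 0.99, 0.98 and 0.97 and rho of 1, 0.83 and 0.77, and with r of 0.97, 0.86 and 0.82 without the third pools. All these genes were picked from many by r over these same 6 pools. High values are thus due in part to the choice, and r over fewer of the pools is not an independent check.

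The chromosomal neighbors of the 8 genes were examined as the 2 nearest measured genes on either side, 32 in all. Tbx2 lies beside Tbx4 and Tbx3 beside Tbx5, the ancient linked pairs of the family. Tbx4, a hindlimb and allantois factor, had a log2 fold change of 0.17 (interval -0.07 to 0.41), and Tbx5, a heart and forelimb factor, of -0.30 (interval -0.60 to -0.01). On the other side, Bcas3 beside Tbx2 was at -0.05 (interval -0.23 to 0.13) and Med13l beside Tbx3 at 0.12 (interval -0.05 to 0.29). The next genes out from Tbx2 were Ppm1d, at 0.05 (interval -0.08 to 0.18), and Brip1, at -0.02 (interval -0.14 to 0.09). From Tbx3 they were Spring1, at -0.18 (interval -0.40 to 0.05), and Rbm19, at -0.12 (interval -0.26 to 0.03). Signs were thus mixed around Tbx2, while all but Med13l shared the negative sign of Tbx3. Among all these genes, only the interval of Tbx5 does not cross 0. Tcf21 lies between Gm10824, at 0.10 (interval -0.07 to 0.28), and Eya4, at 0.09 (interval -0.04 to 0.22). Beyond these, Tbpl1 was at -0.09 (interval -0.23 to 0.06) and Rps12 at 0.04 (interval -0.08 to 0.16). Only Tbpl1 thus shared the sign of Tcf21, and all these intervals cross 0. At an unadjusted p under 0.05, 4 of the 32 neighbors were lower, where 4.66% of all probe sets were, and 0 were higher, against 5.97%. The lower ones were Txnrd2 near Tbx1 (-0.18), Tbx5 near Tbx3 (-0.30), Wars2 near Tbx15 (-0.29) and Snx14 near Tbx18 (-0.14), with limma adjusted p-values from 0.410 to 0.468. Txnrd2 and Wars2 are of middle brightness, where 5.71% were lower, and Tbx5 and Snx14 among the brightest, where 6.71% were. With so few genes, neither count is read as a property of the neighbors.

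The genes around these factors in the same tissues were counted from 6 lists that overlap, with 87 of 96 listed genes measured. None passed an adjusted p of 0.05. Without adjustment, 9 passed as higher (10.3%, against 5.97% of all probe sets) and 7 as lower (8.05%, against 4.66%), and the median difference of the 87 was -0.02. The count of lower genes was 3 after quantile or cyclic loess normalization, and that of higher genes was 4 with the Y-linked covariate. On omission of any 1 of the 6 pools, Foxn1, Pax1 and Tbx6 passed as higher and Gata3 and Hand2 as lower each time. The calls of Gata4, Isl1, Tbx20, Tbx5 and Hes1 ended without knockout replicate 3, the pool low in visceral endoderm markers, and also without heterozygote replicate 2 and without heterozygote replicate 3. Those of Dlx1, Fgf10, Lhx8, Nkx2-6, Pitx3 and Tbx21 ended on omission of any of several pools, from Fgf10, which passed in 3 of 6 omissions, to Tbx21, which passed in 1. Of the 10 other measured T-box genes, 2 were higher, Tbx6 of the paraxial mesoderm at 0.23 and Tbx21 of lymphocytes at 0.13, and 2 were lower, Tbx5 at -0.30 and the cardiac factor Tbx20 at -0.19, with a list median of 0.03. Among 12 relatives of Pitx1, Tcf21 and Msc, the lens and midbrain factor Pitx3 was at 0.15 and the heart and arch factor Hand2 at -0.24, with a list median of -0.02.
Of 22 genes of cardiopharyngeal mesoderm, 3 were lower, Hand2, Gata4 at -0.22 and Isl1 at -0.19, and 1 was higher, Fgf10 at 0.15, a ligand of the second heart field, with a median of -0.03. Hand2 also did not overlap, at 7.26, 7.34 and 7.33 in knockouts, against 7.53, 7.52 and 7.60 in heterozygotes. Fgf10 was at 7.47, 7.52 and 7.51 in knockouts, against 7.32, 7.39 and 7.32 in heterozygotes, again without overlap. Of 18 genes of pharyngeal endoderm and pouches, Foxn1 at 0.33, Pax1 at 0.29 and Nkx2-6 at 0.19 were higher and Gata3 at -0.30 was lower, with a median of 0.02. Foxn1, a thymus factor, was among the dimmest probe sets. Pax1 was at 6.40, 6.45 and 6.15 in knockouts, against 6.01, 6.11 and 6.00 in heterozygotes, which did not overlap. Among 15 genes that respond to Tbx1 in mouse, Fgf10 was higher and Gata4 and the Notch target Hes1 at -0.20 were lower, with a median of -0.06. Of 21 genes of branchial arch mesenchyme, Dlx1 and Lhx8 at 0.23 each were higher and Hand2 was lower, with a median of -0.06. Both Dlx1 and Lhx8 were among the dimmest probe sets. Of the list genes that passed, Tbx5, Gata4, Nkx2-6 and Hes1 had groups that overlapped. Over all probe sets, 17.1% had groups that did not overlap. Because the list genes named were picked by p over these same 6 pools, their separation is not an independent result.
Tcf21 and Tbx18 are also known from the proepicardium and septum transversum, the source of the outer layer of the heart. Of 9 other markers of these tissues, 4 were lower at an unadjusted p under 0.05, namely Sema3d at -0.45, Gata5 at -0.28, Hand2 at -0.24 and Gata4 at -0.22, and 1 was higher, Msln at 0.18, against 4.66% lower and 5.97% higher of all probe sets. In all, 4 of the 9 were above 0 and 5 below, with a median of -0.06. Their summed linear intensity was 1295 to 1386 in knockouts and 1432 to 1663 in heterozygotes, which did not overlap. Such a sum is weighted to the brighter genes. The median over the 9 of the log2 deviation from each gene's mean over the pools did overlap. It was 0.00, 0.04 and -0.09 in knockouts, against -0.02, -0.11 and 0.17 in heterozygotes. The part of a different number of such cells in the Tcf21 difference was not tested.

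**Figure D4:**
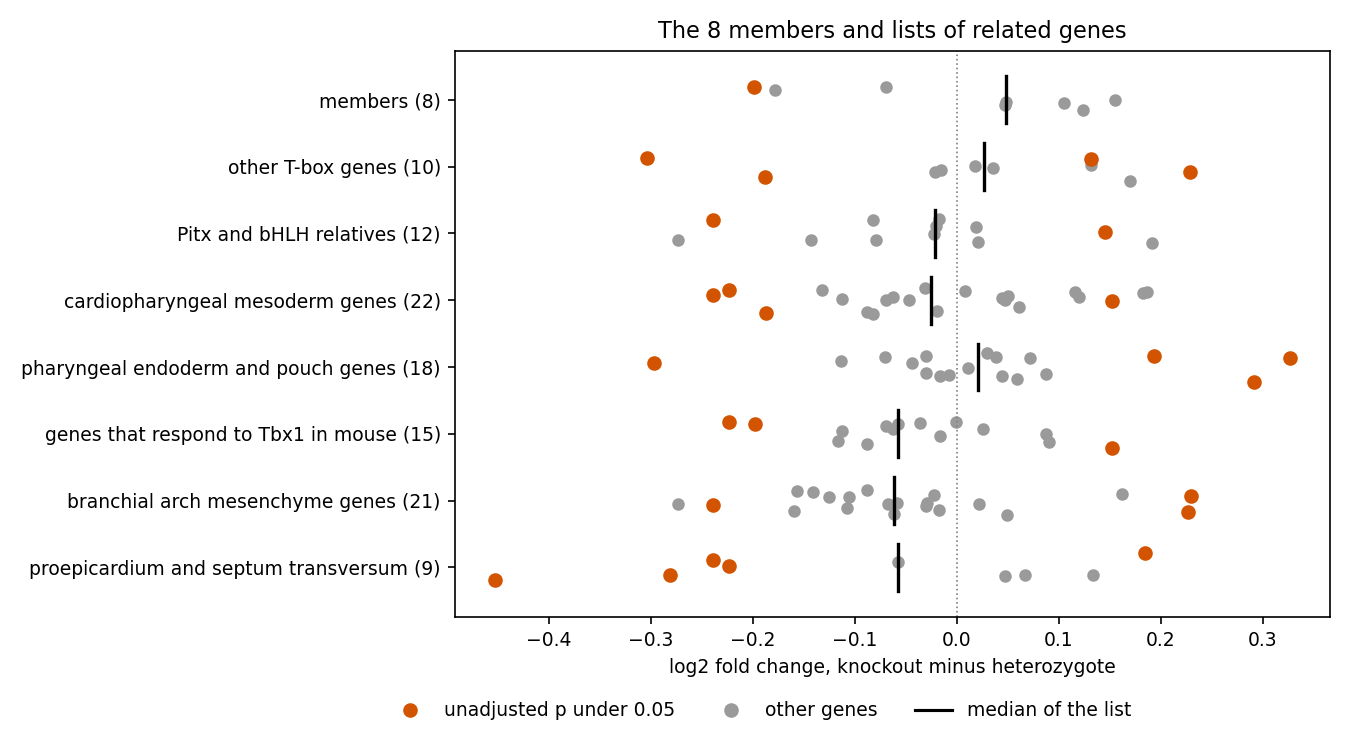
Difference in log2 intensity (knockout minus heterozygote) for every measured gene, drawn as points, in the 8 members, 6 lists of related genes and the proepicardium markers, with numbers of measured genes in parentheses, genes at an unadjusted p under 0.05 in orange and the median of each list as a black line. All points lie between -0.45 and 0.33, and the medians lie between -0.06 and 0.05.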

How the data were processed

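RNA from pools of 4 E8.5 heads, 3 per genotype, was hybridized to Gene 1.0 ST arrays. Per the labels, RMA and Affymetrix Power Tools were used by the authors (versions not given in the sources used here), and the deposited values, from 2.53 to 11741, were read as linear intensity values. Their log2 was taken. Of 35556 rows, 21789 carry exactly 1 symbol in the platform annotation and were fitted together, 1621 carry several and 12146 none listed. A RefSeq table held the gene number of 21698 of them and gave current symbols. The highest-mean probe set stood for a gene. Genotypes were compared with limma 3.58.1 (lmFit, eBayes, no covariate) in R 4.3.3, with Benjamini-Hochberg adjustment over all 21789 probe sets and 95% confidence intervals, and scripts were tested on simulated data. Precision is limited by having 6 arrays. The methods call the pools biological replicates, with litters not given.

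Members and lists were chosen with earlier results of these data known. Named genes are the members, Kdm5b, list genes at an unadjusted p under 0.05, the 2 nearest measured genes on either side of a member and the 3 most similar genes. Of the 32 neighbors, those at an unadjusted p under 0.05 and all those around Tbx2, Tbx3 and Tcf21 are printed, a choice made after their values were seen. Xist and the Y-linked genes were listed as checks. Alternatives left out dim probe sets or single pools, used all rows, averaged probe sets, changed normalization, scale, variance model or weights, added a replicate block, or added the mean of the 3 measured Y-linked genes (1 more listed gene was not analysed here). Same-numbered pools had weak correlations of their deviations from the genotype means, 0.00, 0.11 (replicates 2) and -0.01, against -0.08 to 0.08 for pools of unlike number. No pairing was used in the main fit, and whether same-numbered pools were matched is not known. Promoters are from a separate set of promoter sequences of GRCm38.p6, and protein sequences were not used here.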

Additional observations from a re-analysis of the deposited data

How the results depend on the processing

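No member passed at an adjusted p under 0.05 in any of 17 other settings, where the lowest adjusted p was 0.310, and Tbx2, Tbx3, Pitx1, Tcf21 and Msc kept their direction in every setting that could be run. Tbx15, Tbx18 and Msc gave no value without dim probe sets, because they are among the dimmest probe sets. The log2 fold change of Tbx1 became -0.030 with the Y-linked covariate and that of Tbx18 -0.12, and Tbx15 became -0.011 after quantile and -0.0065 after cyclic loess normalization. With 1 pool left out, the values ranged from -0.00081 to 0.10 for Tbx1 and from -0.019 to 0.23 for Tbx18. The median of the members, 0.05 with all pools, was -0.069 over the 5 members left without dim probe sets and -0.048 with the Y-linked covariate, and with 1 pool left out ranged from 0.0082 (without knockout replicate 2) to 0.072. The count of members lower at an unadjusted p under 0.05 was 1 in every setting except without knockout replicate 1, where Tbx3 made it 2. The count of members higher was 0 and became 1, with Tbx2, without dim probe sets, after quantile or cyclic loess normalization, with array weights, with a pseudocount of 16 and without knockout replicate 1, and 1, with Msc, without heterozygote replicate 1. Of the 87 partner genes, 9 were higher and 7 lower. With the Y-linked covariate 4 were higher. The lower count was 2 with all rows, 3 after quantile or cyclic loess normalization and 4 with the replicate block. Whether the pool numbers pair the samples is not known, and the block moved no count of members. With 1 pool left out, 4 to 9 were higher and 2 to 8 lower, with 4 higher without heterozygote replicate 1, 5 higher and 3 lower without knockout replicate 3, 2 lower without heterozygote replicate 2 and 4 lower without heterozygote replicate 3. The cause of these shifts was not tested.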
